A study of Arabidopsis thaliana with 12 samples.

Results

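Cysteine-rich receptor-like kinases (CRKs) are a family of receptor kinases of the plant plasma membrane, described here in whole seedlings of Arabidopsis thaliana. The family was taken as a list of 41 loci, and 39 of them were found among the 26093 genes of the deposited table. CRK1 (AT1G19090) and CRK33 (AT4G11490) were not analysed here. Messenger RNA was sequenced from 4 genotypes of the Col-0 ecotype with 3 libraries of each, described in the series design as biological replicates. These were the wild type Col-0, the mutant atg2-4, the mutant lon2-8 and the double mutant lon2-8 atg2-4. ATG2 encodes a protein needed for the growth of autophagosomes, and LON2 a Lon-type protease inside peroxisomes. The seedlings grew in continuous light with no treatment that differed between groups, and were 6 days old according to the series design but 8 days old according to the growth protocol. Each mutation is represented by 1 allele. The titles and genotype tags of the 6 single-mutant samples name opposite mutants, and the groups used here follow the titles and the column names of the table.

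A CRK has an extracellular part with cysteine-rich DUF26 domains, a stretch that crosses the membrane once and a kinase inside the cell. Many members are known in Arabidopsis as genes induced by pathogens, salicylic acid or reactive oxygen species, and several act in pattern-triggered immunity, the response to microbial molecules at the plasma membrane, or in the control of cell death. DUF26 domains also occur in the plasmodesmata-located proteins (PDLPs), which lack a kinase.

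The libraries held 14481170 to 18690658 fragments. Levels are given as FPKM, fragments scaled to gene length and library size, where the length proved to be the annotated span of the gene with its introns for 39 of 39 family genes. LON2 had means of 25.9 FPKM in the wild type, 22.3 with atg2-4, 11.6 with lon2-8 and 4.78 with both mutations, and ATG2 had 7.71, 6.31, 7.58 and 6.59 in this order. Of 5 shoot and 8 root marker genes none was at 0 in any group. In whole seedlings, fewer cells of a type and less RNA per cell cannot be told apart. A gene is said to rise or fall where limma's two-sided test on log2(FPKM + 1) gave a p under 0.05 after Benjamini-Hochberg adjustment over all 20662 genes tested, and differences are given with their standard error on that scale, which understates the changes of low genes.

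Of the 39 genes, 28 passed the filter of at least 1 FPKM in at least 3 libraries and were tested, and 11 were below it. For 5 of the 28 (CRK6, CRK15, CRK26, CRK31 and CRK36) the filter was met only with libraries that carry atg2-4, so these genes could enter the test only by being higher there. Counts are therefore also given for the other 23.

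By the RefSeq annotation of assembly TAIR10.1, 20 of the 41 genes, CRK5 to CRK24, form a single array of 74.2 kb on chromosome 4 (chr4:12117491-12191704), 9 on the plus strand and 11 on the minus strand, with 2 other annotated genes among them. All 20 are in the table, and 14 were tested. CRK36 to CRK40, CRK30 to CRK34 and CRK27 to CRK29 lie in smaller groups on the same chromosome, with 2, 3 and 3 genes tested. The other 8 are dispersed, 6 of them tested. The coding sequences of any pair of members were 21.2 to 86.9% identical by global alignment, with a median of 55.4% over 820 pairs and of 58.9% over the 190 pairs within the array. CRK19 and CRK20 (86.9%), CRK39 and CRK40 (85.7%) and CRK28 and CRK29 (85.3%) were the closest pairs.

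The promoters of 6 members are shown, chosen by the size of their differences or by their sequence. CRK9 (AT4G23170), CRK14 (AT4G23220) and CRK6 (AT4G23140) had the largest rises in atg2-4, CRK30 (AT4G11460) the largest fall in lon2-8, CRK21 (AT4G23290) the smallest difference between atg2-4 and Col-0, and CRK11 (AT4G23190) the most copies of TTGAC in its window. TTGAC is the core of the W-box, the element that WRKY transcription factors of plant defence bind. Each sequence is the 250 bases before the annotated start on the gene's own strand, 5′ to 3′, from TAIR10.1, with TTGAC and its reverse complement GTCAA in capitals. They lie at chr4:12134723-12134972 (plus strand) for CRK9, chr4:12156882-12157131 (minus strand) for CRK14, chr4:12121119-12121368 (plus strand) for CRK6, chr4:6963271-6963520 (plus strand) for CRK30, chr4:12180937-12181186 (minus strand) for CRK21 and chr4:12143859-12144108 (minus strand) for CRK11. None of the 6 stretches overlaps another annotated gene.
CRK9: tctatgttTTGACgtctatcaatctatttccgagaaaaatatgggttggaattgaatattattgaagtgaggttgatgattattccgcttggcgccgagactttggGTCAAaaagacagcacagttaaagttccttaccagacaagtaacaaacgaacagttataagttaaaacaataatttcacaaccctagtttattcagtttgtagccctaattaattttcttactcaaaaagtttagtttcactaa
CRK14: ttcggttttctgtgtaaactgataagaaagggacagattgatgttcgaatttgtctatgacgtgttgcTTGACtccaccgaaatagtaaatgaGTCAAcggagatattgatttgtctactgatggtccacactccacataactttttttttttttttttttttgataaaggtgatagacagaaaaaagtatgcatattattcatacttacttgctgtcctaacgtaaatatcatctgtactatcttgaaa
CRK6: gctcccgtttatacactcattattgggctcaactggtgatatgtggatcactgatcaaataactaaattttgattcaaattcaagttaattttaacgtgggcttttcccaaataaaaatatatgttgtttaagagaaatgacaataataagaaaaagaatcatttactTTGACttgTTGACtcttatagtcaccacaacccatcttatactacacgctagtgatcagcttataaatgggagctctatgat
CRK30: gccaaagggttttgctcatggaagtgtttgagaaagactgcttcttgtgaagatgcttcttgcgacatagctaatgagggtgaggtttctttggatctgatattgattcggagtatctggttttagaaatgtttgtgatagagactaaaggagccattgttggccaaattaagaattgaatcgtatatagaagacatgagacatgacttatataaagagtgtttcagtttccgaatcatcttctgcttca
CRK21: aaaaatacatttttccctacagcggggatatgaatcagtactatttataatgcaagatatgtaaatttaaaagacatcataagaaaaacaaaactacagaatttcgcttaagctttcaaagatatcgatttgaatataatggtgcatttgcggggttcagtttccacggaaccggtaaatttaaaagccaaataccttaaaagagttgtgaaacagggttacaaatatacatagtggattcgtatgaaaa
CRK11: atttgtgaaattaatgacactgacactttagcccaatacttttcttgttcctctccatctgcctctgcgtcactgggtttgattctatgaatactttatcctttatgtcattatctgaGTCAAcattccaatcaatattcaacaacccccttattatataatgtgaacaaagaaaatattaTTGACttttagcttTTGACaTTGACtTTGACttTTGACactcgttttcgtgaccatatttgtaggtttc
CRK9, CRK14 and CRK6 hold 2 cores each in these 250 bases, CRK11 holds 6, and CRK30 and CRK21 hold 0.

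What atg2-4 changes in the RNA of seedlings was read from its comparison with Col-0. Most tested members rose in atg2-4, and the largest rises were in the array. Summed over the 39 genes, the level was 182, 189 and 192 FPKM in Col-0 and 276, 259 and 262 in atg2-4. The 20 array genes made up most of this gap, with 86.6, 90.4 and 92.7 FPKM in Col-0 against 160, 151 and 149 in atg2-4. The other 19 genes summed to 95, 98.1 and 99.6 against 116, 107 and 113. In all 3 sums the groups did not overlap.

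Of the 28 tested members, 19 rose in atg2-4 and 4 fell, where 48.5% of all genes tested passed, 21.3% of them higher and 27.2% lower. Among the 23 members that did not depend on libraries with atg2-4 to be tested, 14 rose and 4 fell. In the array 12 of 14 rose and 0 fell, and outside it 7 of 14 rose and 4 fell. Without the 5 genes that needed those libraries, 10 of 12 array genes rose and 0 fell, with a median difference of 0.70, and 4 of 11 others rose and 4 fell, with a median of 0.06. The median over all genes was −0.05. Of the members, 6 rose by at least 2-fold on the log2(FPKM + 1) scale (CRK6, CRK9, CRK11, CRK13, CRK14 and CRK15), where 3.28% of all genes did so. Among the 23 members 4 did so, where 2.5% of all genes did that met the filter both with and without the atg2-4 libraries. In the ratio of mean FPKM, the 6 rises and also those of CRK5, CRK25, CRK31 and CRK36 were at least 2-fold. The last 3 lie outside the array. Of these genes, CRK6, CRK15, CRK31 and CRK36 met the filter only with libraries that carry atg2-4. How many of all genes reached 2-fold in this ratio was not counted, here or in the comparisons below. Of 7 tested genes among the 10 protein-coding genes on each side of the array, 0 rose and 1 fell in atg2-4, and their differences lay between −0.26 and 0.29.

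**Figure D1:**
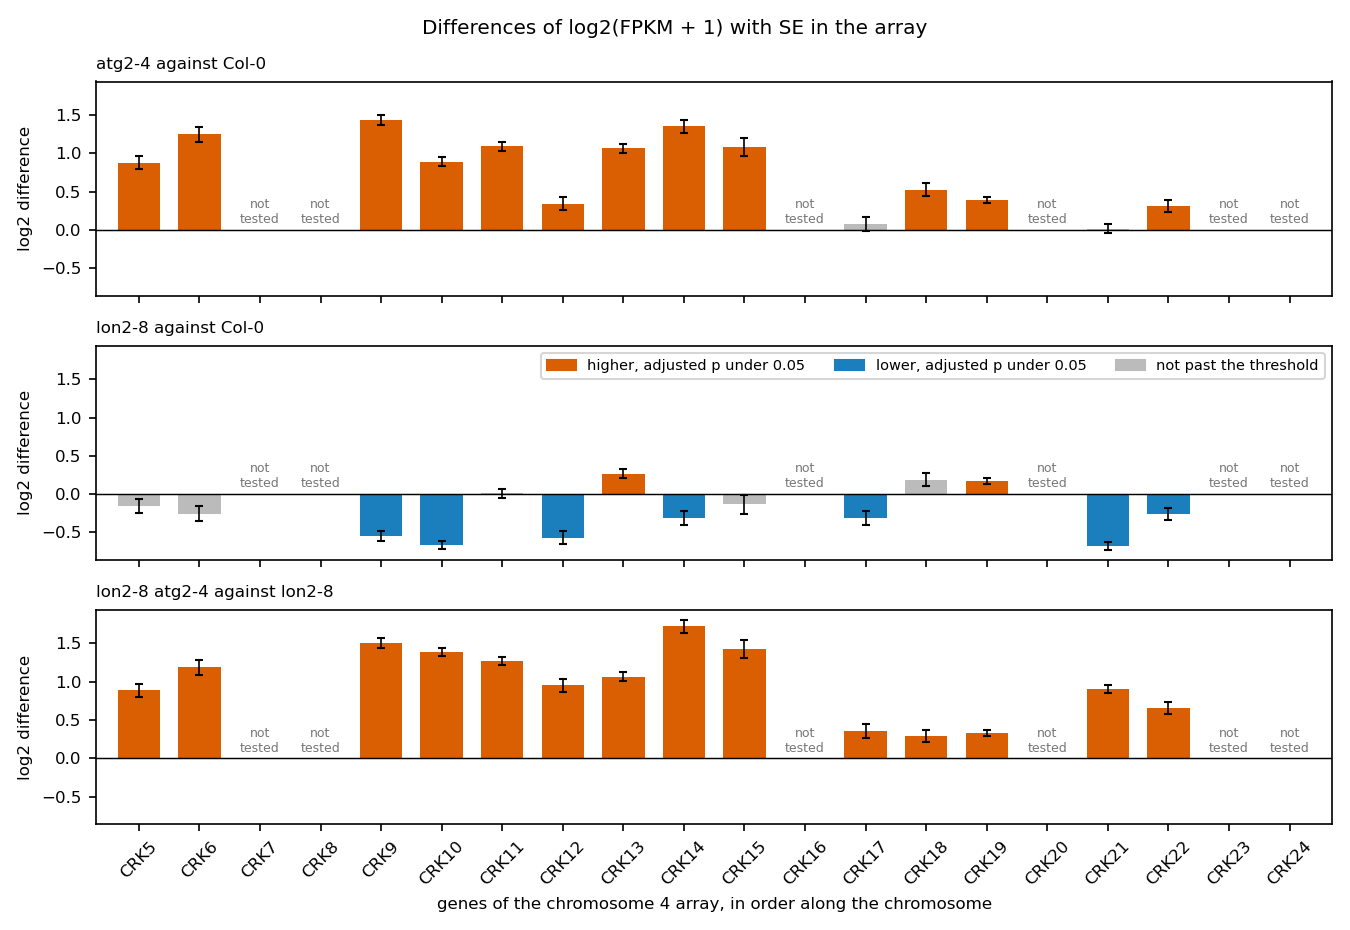
Differences of log2(FPKM + 1) along the 20 genes of the chromosome 4 array, in chromosome order, for atg2-4 against Col-0, lon2-8 against Col-0 and the double mutant against lon2-8. Bars are differences of means of 3 libraries, whiskers are standard errors, and orange and blue mark rises and falls at an adjusted p under 0.05; 12, 2 and 14 of the 14 tested genes rose.

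CRK9, also annotated as EP1, has the shortest coding sequence of the 41 members, 798 bases, and RefSeq names its product only as related to receptor-like kinases. It was at 4.28, 4.34 and 4.46 FPKM in the wild type, 14.5, 13.4 and 12.7 with atg2-4 alone, 2.64, 2.44 and 2.93 with lon2-8 alone and 8.8, 9.69 and 9.82 with both mutations. No atg2-4 or double mutant library overlapped those of Col-0 or lon2-8. The rise in atg2-4 was the largest of the family on the log2 scale (1.44 ± 0.066, adjusted p = 1.42e-09), a ratio of 3.11 in FPKM. CRK14 was at 1.84, 1.34 and 1.47 FPKM in the wild type, 5.24, 5.82 and 5.42 with atg2-4 alone, 0.898, 1.3 and 0.978 with lon2-8 alone and 5.69, 5.95 and 5.68 with both mutations. Its rise was 1.35 ± 0.089 (adjusted p = 5.55e-08), and again the groups with and without atg2-4 did not overlap. CRK6 and CRK7 are close paralogs known to protect Arabidopsis against reactive oxygen species outside the cell. CRK6 was at 0.392, 0.61 and 0.73 FPKM in the wild type, 2.84, 2.44 and 2.93 with atg2-4 alone, 0.342, 0.374 and 0.244 with lon2-8 alone and 2.08, 2.05 and 1.92 with both mutations. It rose by 1.25 ± 0.098 (adjusted p = 3.19e-07), which was a ratio of 4.74. Of the 100-base stretches of its exons, 11.0% occur elsewhere in the genome, so part of its fragments may be shared with another locus.

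CRK11, CRK13 and CRK15 were the other members that rose by at least 2-fold on the log2(FPKM + 1) scale in atg2-4. CRK11, also known as RLK3 and induced by oxidative stress and pathogens, was at 8.64, 9.79 and 9.56 FPKM in the wild type, 22.9, 19.9 and 20.5 with atg2-4 alone, 8.97, 9.69 and 9.56 with lon2-8 alone and 24.6, 23.5 and 24.2 with both mutations. Its difference between atg2-4 and Col-0 was 1.10 ± 0.059 (adjusted p = 6.55e-09), with lon2-8 overlapping Col-0. CRK13 (AT4G23210) is known in Arabidopsis for cell death and salicylic acid-dependent resistance when overexpressed. It was at 2.63, 2.67 and 2.74 FPKM in the wild type, 6.96, 6.57 and 6.59 with atg2-4 alone, 3.27, 3.44 and 3.59 with lon2-8 alone and 8.25, 7.71 and 8.88 with both mutations. The rise was 1.07 ± 0.059 (adjusted p = 9.58e-09), and here the order of the 4 genotypes was complete, since the libraries of Col-0, lon2-8, atg2-4 and the double mutant followed each other without overlap. Of its 100-base exon stretches 10.7% are found elsewhere. CRK15 (AT4G23230) was at 0.583, 0.287 and 0.874 FPKM in the wild type, 2.14, 2.2 and 2.6 with atg2-4 alone, 0.472, 0.443 and 0.364 with lon2-8 alone and 2.88, 2.87 and 2.77 with both mutations. It rose by 1.08 ± 0.12 (adjusted p = 7.91e-06), and its Col-0 libraries spanned a wide range that held all 3 lon2-8 values.

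**Figure D2:**
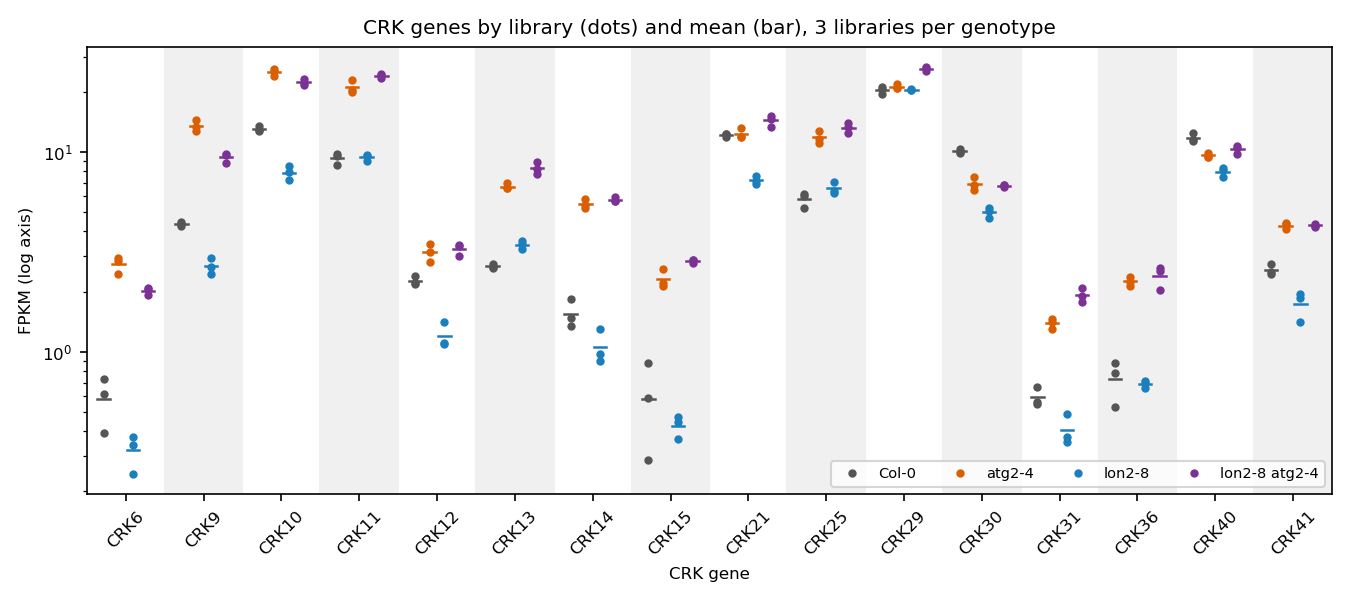
FPKM of the 16 tested CRK genes whose values are given by library, on a log axis, for Col-0 (grey), atg2-4 (orange), lon2-8 (blue) and the double mutant (purple). Dots are libraries and bars are means of 3; in CRK9 and CRK14 every library with atg2-4 lies above every library without it, and in CRK30 the Col-0 libraries are the highest.

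CRK10 (AT4G23180) was at 12.7, 12.9 and 13.5 FPKM in the wild type, 25.3, 25.9 and 24.1 with atg2-4 alone, 8.49, 7.94 and 7.23 with lon2-8 alone and 23.2, 22.1 and 21.6 with both mutations. Its rise in atg2-4 (0.89 ± 0.054, adjusted p = 2.40e-08) corresponded to a ratio of 1.92, and lon2-8 was the lowest group, without overlap. The annotated ends of CRK10 and CRK11, on opposite strands, overlap by 32 bases. CRK12 (AT4G23200) was at 2.18, 2.4 and 2.2 FPKM in the wild type, 3.45, 2.83 and 3.15 with atg2-4 alone, 1.41, 1.1 and 1.09 with lon2-8 alone and 3.4, 3 and 3.41 with both mutations. The rise of CRK12 in atg2-4 was small (0.34 ± 0.084, adjusted p = 0.00449). CRK5, an array member known for effects on senescence and cell death, rose by 0.88 ± 0.089 from 1.67 ± 0.084 to 3.91 ± 0.24 FPKM (SD, n = 3). CRK18, CRK19 and CRK22 rose by 0.53, 0.40 and 0.32. The remaining tested array genes did not pass in atg2-4, CRK17 at 0.07 ± 0.093 (adjusted p = 0.54) and CRK21 at 0.02 ± 0.056 (adjusted p = 0.825). CRK17 overlaps CRK16 by 1190 bases on the same strand, and CRK19 overlaps AT4G23271 by 102 bases on the opposite strand, so part of their fragments may be shared, as may be those of CRK22, of whose 100-base exon stretches 11.9% occur elsewhere.

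Outside the array the members moved in both directions. CRK36 (AT4G04490), which is known to bind and phosphorylate the immune kinase BIK1, was at 0.882, 0.784 and 0.53 FPKM in the wild type, 2.23, 2.14 and 2.37 with atg2-4 alone, 0.714, 0.694 and 0.656 with lon2-8 alone and 2.63, 2.54 and 2.04 with both mutations. It rose in atg2-4 by 0.91 ± 0.098 (adjusted p = 6.28e-06), and its lon2-8 libraries lay inside the range of Col-0. CRK25 (AT4G05200) was at 5.24, 6.01 and 6.13 FPKM in the wild type, 11.7, 11.1 and 12.8 with atg2-4 alone, 6.25, 7.08 and 6.41 with lon2-8 alone and 13.9, 12.4 and 13.3 with both mutations. Its rise was 0.92 ± 0.071 (adjusted p = 2.55e-07), and every library with atg2-4 lay above every library without it. CRK25 overlaps ATK5 on the opposite strand by 492 bases, and since the sources used here do not say whether strand was used, their fragments cannot be told apart there. CRK31 (AT4G11470) was at 0.561, 0.55 and 0.662 FPKM in the wild type, 1.4, 1.3 and 1.46 with atg2-4 alone, 0.373, 0.354 and 0.484 with lon2-8 alone and 1.76, 2.09 and 1.89 with both mutations, and it rose by 0.59 ± 0.086 in atg2-4 (adjusted p = 0.0001). CRK41 (AT4G00970) was at 2.75, 2.51 and 2.44 FPKM in the wild type, 4.34, 4.41 and 4.1 with atg2-4 alone, 1.95, 1.86 and 1.41 with lon2-8 alone and 4.38, 4.2 and 4.28 with both mutations. The rise of CRK41 was 0.57 ± 0.079 (adjusted p = 6.05e-05), and atg2-4 overlapped the double mutant. CRK2, known to phosphorylate the NADPH oxidase RBOHD, rose by 0.47 ± 0.045 (adjusted p = 1.92e-06), from 15.7 ± 0.55 to 22.2 ± 0.41 FPKM. CRK26 and CRK34 completed the rises; that of CRK34 was lost without Col-0 library 1, atg2-4 library 1 or atg2-4 library 3 (adjusted p = 0.0806, 0.0794 and 0.0587).

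The 4 falls in atg2-4 were all outside the array. CRK30 was at 10.3, 9.98 and 9.9 FPKM in the wild type, 7.51, 6.42 and 6.85 with atg2-4 alone, 5.24, 5.05 and 4.65 with lon2-8 alone and 6.83, 6.69 and 6.84 with both mutations. It fell in atg2-4 (−0.48 ± 0.058, adjusted p = 1.77e-05), and all 9 mutant libraries lay below all Col-0 libraries. CRK40 (AT4G04570) was at 11.4, 12.5 and 11.3 FPKM in the wild type, 9.93, 9.46 and 9.49 with atg2-4 alone, 8.29, 8.12 and 7.52 with lon2-8 alone and 10.7, 9.81 and 10.5 with both mutations. Its fall was −0.26 ± 0.054 (adjusted p = 0.00141), with the lon2-8 libraries lowest. CRK42 fell by 0.30 ± 0.074 from 4.63 ± 0.45 to 3.55 ± 0.19 FPKM, and overlaps AT5G40382 on the opposite strand by 130 bases. CRK28, known to associate with BAK1 and FLS2 in immune receptor complexes, fell by 0.25 ± 0.076 (adjusted p = 0.0146), and lost its call without atg2-4 library 2 (0.0600). CRK28 and its neighbour CRK29 overlap by 470 bases on the same strand. CRK3 (0.17 ± 0.070, adjusted p = 0.0635) and CRK27 (−0.19 ± 0.10, adjusted p = 0.146) passed in none of the 6 comparisons.

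Marker genes of organs differed between atg2-4 and Col-0 too. The 5 shoot markers summed to 17555 to 17891 FPKM in Col-0 and 15521 to 16664 in atg2-4, with 0 higher and 2 lower, and the 8 root markers to 1570 to 1680 and 1142 to 1210, with 2 higher and 1 lower. The lower root sum was that of PYK10, at 1129 to 1157 FPKM in Col-0 and 644 to 665 in atg2-4, while the other 7 root markers summed to 431 to 523 and 499 to 545. Their part in the family's rises was not tested.

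The same was done for the LON2 mutation by comparing lon2-8 with Col-0. Here more members fell than rose, each by less than 2-fold on the log2(FPKM + 1) scale. The summed level of the 39 genes was 163, 167 and 164 FPKM in lon2-8, below all 3 Col-0 libraries. The array summed to 77.9, 77.8 and 79.8 FPKM and the other 19 genes to 85.4, 88.7 and 84.5, also below Col-0. Of 28 tested members 11 fell and 2 rose, where 23.1% of all genes passed, 14.1% of them lower and 9.06% higher. Among the 23 members that did not depend on libraries with atg2-4 to be tested, 11 fell and 2 rose as well. That was 56.5% of them, where 23.9% of all genes passed that met the filter both with and without the atg2-4 libraries. In the array 7 of 14 fell and 2 rose, with a median of −0.26, and outside it 4 of 14 fell and 0 rose, with a median of −0.06 against −0.04 over all genes. With each library centred on its median, 7 members fell and 3 rose, and the share of higher genes among all calls moved from 39.2 to 58.7%.

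CRK30 fell most, with a mean ratio of 0.494 to the wild type (−0.89 ± 0.058, adjusted p = 3.00e-07). CRK21 was at 12.3, 12.3 and 11.8 FPKM in the wild type, 13.1, 11.9 and 11.9 with atg2-4 alone, 6.92, 7.14 and 7.6 with lon2-8 alone and 13.4, 14.6 and 15.2 with both mutations. Its lon2-8 libraries stood apart below the other 3 genotypes, and the fall was −0.68 ± 0.056 (adjusted p = 2.48e-06). CRK10 (−0.66 ± 0.054, adjusted p = 2.13e-06), CRK12 (−0.57 ± 0.084, adjusted p = 0.000339), CRK9 (−0.55 ± 0.066, adjusted p = 6.21e-05), CRK40 (−0.51 ± 0.054, adjusted p = 2.21e-05) and CRK41 (−0.39 ± 0.079, adjusted p = 0.0035) fell as well. These 7 falls passed under every alternative setting and with any 1 library left out. The other 4 did not. CRK2 (−0.15), CRK14 (−0.31), CRK17 (−0.31) and CRK22 (−0.26) lost their calls when libraries were centred on their median (adjusted p = 0.123, 0.0597, 0.0557 and 0.0650).

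Single libraries also decided these 4 calls. That of CRK2 was lost without Col-0 library 2 or 3 (adjusted p = 0.0940 and 0.10) or lon2-8 library 1 or 2 (0.106 and 0.0564), that of CRK14 without Col-0 library 1 (0.103) or lon2-8 library 1 or 3 (0.0913 and 0.0775). CRK17 lost its call without Col-0 library 2 or 3 (adjusted p = 0.0947 and 0.0622) or any lon2-8 library (0.0510 to 0.0840). CRK22 lost it without Col-0 library 2 or 3 (adjusted p = 0.0659 and 0.102) or lon2-8 library 2 or 3 (0.0596 and 0.0783). CRK13 (0.27 ± 0.059, adjusted p = 0.00571) and CRK19 (0.17 ± 0.039, adjusted p = 0.00792) were the members that rose.

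Root markers moved with lon2-8. The 8 root markers summed to 2292 to 2613 FPKM in lon2-8 against 1570 to 1680 in Col-0, with 5 higher and 1 lower, and without PYK10 they summed to 569 to 766 against 431 to 523. The 5 shoot markers summed to 16894 to 17760, with 2 higher and 2 lower. Their part in the family's falls was not tested.

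The double mutant was compared with lon2-8 to see the effect of atg2-4 where LON2 is mutated too. This comparison shares no library with that of atg2-4 and Col-0. The double mutant libraries summed to 272, 266 and 274 FPKM over the 39 genes, above all lon2-8 libraries and within the range of the atg2-4 libraries. The array summed to 155, 151 and 158 FPKM in them and the other genes to 117, 115 and 116. Of the 28 tested members 23 rose and 0 fell, where 49.9% of all genes passed, 25.3% of them higher and 24.6% lower. Among the 23 members that did not need libraries with atg2-4 to be tested, 19 rose and 0 fell. The rises included 14 of 14 array genes and 9 of 14 others. Of those 23, 12 of 12 array genes rose, with a median of 0.93, and 7 of 11 others, with a median of 0.33, where all genes had a median of −0.01. On the log2(FPKM + 1) scale 9 members rose by at least 2-fold, as did 3.25% of all genes. Of the 23, 5 did so, where 2.53% of all genes did that met the filter both with and without the atg2-4 libraries. With libraries centred on their median, 22 members rose and 1, CRK27, fell (adjusted p = 0.0378).

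CRK14 rose most (1.72 ± 0.089, adjusted p = 4.53e-09), followed by CRK9 (1.51 ± 0.066), CRK15 (1.43 ± 0.12), CRK10 (1.39 ± 0.054) and CRK11 (1.27 ± 0.059). CRK6 (1.19 ± 0.098), CRK13 (1.06 ± 0.059), CRK31 (1.05 ± 0.086) and CRK36 (1.01 ± 0.098) were the other rises of at least 2-fold on the log2(FPKM + 1) scale, and CRK41 (0.95 ± 0.079) and CRK12 (0.96 ± 0.084) came next. In the ratio of mean FPKM, CRK5, CRK12, CRK25 and CRK41 were at least 2-fold higher too. Of the 19 members that rose in atg2-4 against Col-0, 18 also rose in the double mutant against lon2-8 (94.7% of the first list and 78.3% of the second, which holds 23). Over all genes tested, 78.0% of those higher in the first comparison were higher in the second, and 65.8% the other way round. The 18 include CRK6, CRK15, CRK31 and CRK36, which met the filter only with libraries that carry atg2-4. Among the 23 members that did not, 14 rose in the first comparison, and all of these also rose in the second, where 19 rose. The shares over all genes were not restricted in this way. CRK26 was the member that rose in the first alone by call (0.18 ± 0.11, adjusted p = 0.213 in the second). The 5 members that rose by call in the second alone were CRK17 (0.35), CRK21 (0.90), CRK29 (0.33), CRK30 (0.38) and CRK40 (0.34). Of these, CRK30 (−0.48) and CRK40 (−0.26) had fallen in the first, so their direction was opposite in the 2 comparisons. Of the 4 members that fell in the first, 0 fell in the second. Over all genes tested, 62.0% of those lower in the first were lower in the second. Whether the effects differ between the backgrounds is what the interaction tests. The rise of CRK34 (0.23 ± 0.087, adjusted p = 0.0437) was lost when libraries were centred (adjusted p = 0.0831) and without any of the 3 lon2-8 libraries (0.0611 to 0.115), double mutant library 1 or 3 (0.130 and 0.136), Col-0 library 2 (0.0549) or atg2-4 library 3 (0.0532).

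The root markers differed in this comparison as well, at 1089 to 1157 FPKM in the double mutant against 2292 to 2613 in lon2-8, with 0 higher and 6 of 8 lower. Without PYK10 they summed to 372 to 422 against 569 to 766. Their part in the family's rises was not tested.

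Against Col-0, whose libraries this comparison shares with those above, the double mutant had 20 of 28 members higher and 3 lower, where 52.0% of all genes passed, 22.0% of them higher and 30.1% lower. Among the 23 members that did not depend on libraries with atg2-4 to be tested, 15 were higher and 3 lower. In the array 13 of 14 were higher, or 11 of 12 among those 23, and the exception was CRK17 (0.04 ± 0.093, adjusted p = 0.739). CRK14 (1.42 ± 0.089), CRK13 (1.33 ± 0.059), CRK15 (1.3 ± 0.12), CRK11 (1.28 ± 0.059) and CRK25 (1.06 ± 0.071) were at least 2-fold higher on the log2(FPKM + 1) scale, as were 3.40% of all genes. Of these 5, 4 are among the 23, where 2.72% of all genes that met the filter both with and without the atg2-4 libraries were 2-fold higher. In the ratio of mean FPKM, CRK5, CRK6, CRK9, CRK31 and CRK36 were at least 2-fold higher as well. On the log2(FPKM + 1) scale CRK9 differed by 0.96 ± 0.066 and CRK6 by 0.94 ± 0.098. CRK30 (−0.51 ± 0.058), CRK42 (−0.21 ± 0.074) and CRK40 (−0.17 ± 0.054) were lower. CRK40 lost its call without library 2 of Col-0 (adjusted p = 0.0944) or of the double mutant (0.0860), and CRK42 without Col-0 library 1 or 3 (0.0602 and 0.127) or double mutant library 1 or 3 (0.0609 and 0.115). Of the markers, 0 root genes were higher and 3 lower than in Col-0, and 0 shoot genes higher and 2 lower, and their part in these differences was not tested.

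The double mutant was also compared with atg2-4, which shows what lon2-8 adds to atg2-4 and shares no library with lon2-8 against Col-0. Of 28, 4 were higher and 2 lower, or 21.4%, where 8.88% of all genes passed, 4.44% of them higher and 4.44% lower. Among the 23 members that did not depend on libraries with atg2-4 to be tested, 4 were higher and 2 lower as well. That was 26.1% of them, where 8.95% of all genes passed that met the filter both with and without the atg2-4 libraries. CRK9 fell (−0.48 ± 0.066, adjusted p = 0.000812), with all double mutant libraries below all atg2-4 libraries, and CRK2 fell (−0.20 ± 0.045, adjusted p = 0.0165). CRK29 (AT4G21410) was at 19.5, 20.7 and 21 FPKM in the wild type, 20.8, 20.9 and 22 with atg2-4 alone, 20.5, 20.6 and 20.4 with lon2-8 alone and 25.4, 26.5 and 26.2 with both mutations. Its double mutant libraries stood above all others, and the rise was 0.28 ± 0.039 (adjusted p = 0.000909). CRK29 overlaps CRK28 by 470 bases and AT4G03065 by 305 bases on the same strand, so some of its fragments may belong to either. CRK28 (0.30 ± 0.076, adjusted p = 0.0279), CRK13 (0.27 ± 0.059, adjusted p = 0.0146) and CRK21 (0.21 ± 0.056, adjusted p = 0.0365) rose.

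Of these 6 calls, those of CRK9 and CRK29 were kept whichever single library was left out. CRK2 lost its call without double mutant library 1 or 3 (adjusted p = 0.0599 and 0.0697), and CRK13 without atg2-4 library 3 or double mutant library 3 (0.0562 and 0.0698). CRK28 lost it without atg2-4 library 1 or 2 or any double mutant library (0.0677 to 0.0922). CRK21 lost it without Col-0 library 2 (adjusted p = 0.0511), atg2-4 library 2 or 3 (0.106 and 0.125) or double mutant library 2 or 3 (0.108 and 0.142). Without double mutant library 3 the count was 2. Of the root markers 1 was higher and 3 lower, and of the shoot markers 1 was higher and 1 lower, and their part in these calls was not tested. Of the 11 members that fell in lon2-8 against Col-0, CRK2 and CRK9 fell here too, 18.2% of the first list and both of the falls here. Over all genes, 9.3% of those lower in the first comparison were lower in the second, and 29.4% the other way round.

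The interaction tests whether the effect of lon2-8 differs between the backgrounds, as the difference in atg2-4 minus that in Col-0. It passed for 8 of 28 members, all with a positive sign, where 13.2% of all genes passed, 7.10% of them positive and 6.08% negative. The family's median was 0.22 and that of all genes 0.03. Of the 23 members that did not depend on libraries with atg2-4 to be tested, 7 passed. With libraries centred on their median 7 members passed, also all positive, while the share of positive genes among all calls moved from 53.8 to 42.4%.

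**Figure D3:**
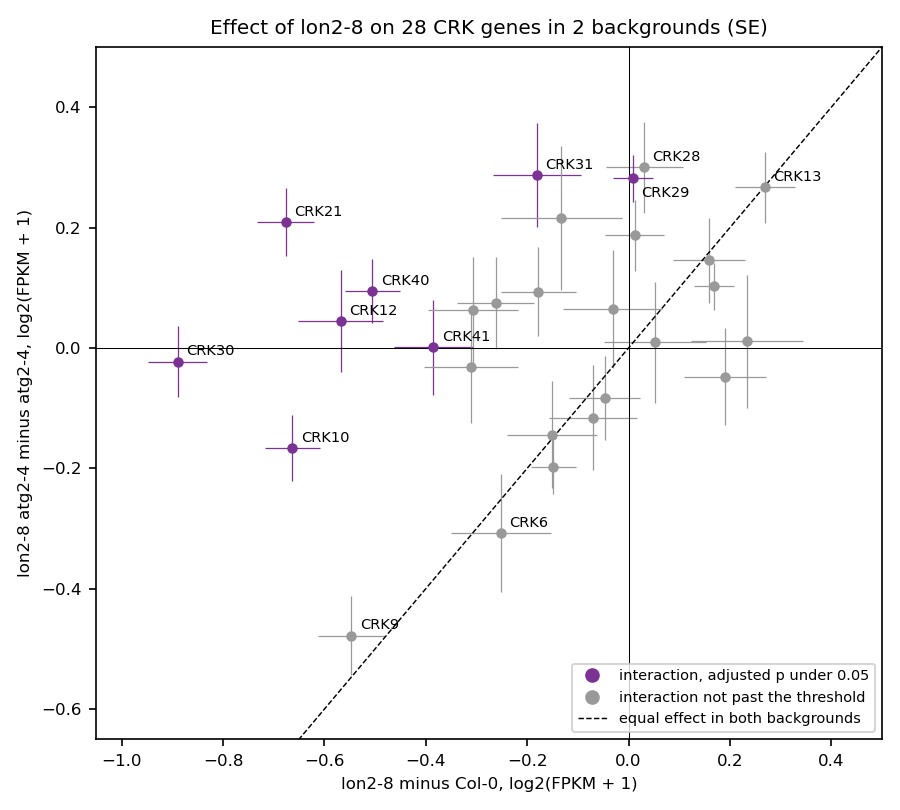
Effect of lon2-8 on 28 CRK genes as a difference of log2(FPKM + 1) in the Col-0 background (x axis) and in the atg2-4 background (y axis), with standard errors. The dashed line marks equal effects, and the 8 genes past the threshold in the interaction (purple) all lie above it, CRK21 and CRK30 farthest.

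CRK21 had the largest interaction (0.89 ± 0.080, adjusted p = 1.51e-05), since its level in lon2-8 was below Col-0 while every double mutant library was above every atg2-4 library. CRK30 (0.87 ± 0.083, adjusted p = 2.57e-05) had its lowest values in lon2-8 alone, and the double mutant overlapped atg2-4. CRK12 (0.61 ± 0.12, adjusted p = 0.00453), CRK40 (0.60 ± 0.076, adjusted p = 0.000219) and CRK10 (0.50 ± 0.077, adjusted p = 0.000969) were likewise lower in lon2-8 against Col-0 and did not pass in the double mutant against atg2-4. CRK29 (0.27 ± 0.056, adjusted p = 0.00621) differed in kind, with lon2-8 inside the Col-0 range and the double mutant above atg2-4. CRK31 (0.47 ± 0.12, adjusted p = 0.0234) lost its call without Col-0 library 3, atg2-4 library 2, double mutant library 2 or lon2-8 library 2 (0.0551, 0.0520, 0.0622 and 0.0538). CRK41 (0.39 ± 0.11, adjusted p = 0.0377) lost its call without any one of the libraries except lon2-8 libraries 1 and 2 (0.0504 to 0.0851) and when libraries were centred (0.0631). The root markers passed in the interaction for 6 of 8 genes, all negative, and their part in the family's interactions was not tested.

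CRK9 showed no detectable interaction (0.07 ± 0.093, adjusted p = 0.685), and it fell with lon2-8 in both backgrounds. CRK13 (−0.00 ± 0.084, adjusted p = 0.993) rose with lon2-8 in both. CRK14 (0.37 ± 0.13, adjusted p = 0.0757), CRK15 (0.35 ± 0.17, adjusted p = 0.204) and CRK22 (0.34 ± 0.11, adjusted p = 0.0565) missed the threshold with all libraries and passed it without lon2-8 library 2 (0.0310), Col-0 library 2 (0.0449) and Col-0 or atg2-4 library 1 (0.0230 and 0.0428), in that order. A p that misses the threshold does not show that the effects were equal.

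The W-box core TTGAC, counted on both strands from 250 bases before to 50 after the annotated start, was present in the windows of 31 of the 41 genes (75.6%), against 50.5% of the 27443 protein-coding genes of the annotation. The 2 spellings, TTGAC and GTCAA, cannot overlap each other. Windows with 2 or more cores made up 41.5% of the family, 55% of the array and 28.6% of the genes outside it, against 17.7% of all genes. CRK11 held 7 in this longer window. Set beside the calls in atg2-4, 15 of the 19 members that rose held a core, where 31 of the 41 genes of the family did. The exceptions among the 19 were CRK2, CRK12, CRK13 and CRK22. The 15 include all 5 members that met the filter only with libraries that carry atg2-4. Of the 14 rises among the other 23 members, the same 4 lacked a core. Of the 4 that fell, 1 held a core (CRK42), and of the 5 that did not pass, 3 did. Among the 11 members that fell in lon2-8, 5 held a core. Of the printed promoters, chosen by their changes or cores, those of CRK6, CRK9, CRK11 and CRK14 hold cores and those of CRK21 and CRK30 hold none. CRK13 rose by 1.07 with 0 cores, and CRK17 held 3 and did not pass. These counts describe letters in a window. Binding was not measured, and a link between cores and calls was not tested.

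**Figure D4:**
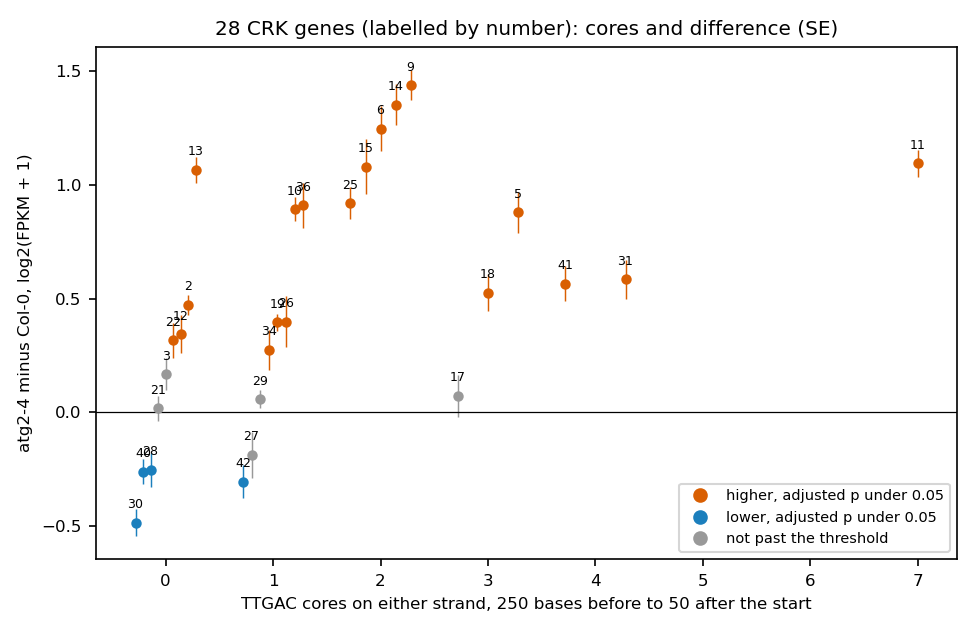
Number of TTGAC cores on either strand in the window from 250 bases before to 50 after the start (x axis, dots spread within each whole number) against the difference of log2(FPKM + 1) between atg2-4 and Col-0 with its standard error (y axis) for 28 CRK genes, labelled by number. Orange genes rose and blue genes fell; 3 of the 4 genes that fell have 0 cores and CRK11 has 7.

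The 11 genes below the filter were CRK4, CRK7, CRK8, CRK16, CRK20, CRK23, CRK24, CRK32, CRK37, CRK38 and CRK39, and their means lay at or under 1.07 FPKM in every genotype. They are named after their values were seen. In 6 of them (CRK7, CRK20, CRK23, CRK24, CRK32 and CRK37) all 6 libraries with atg2-4 lay above all 6 without. How many of all genes are separated in this way was not counted. CRK37 was at 0.163, 0.17 and 0.173 FPKM in the wild type, 1.29, 0.92 and 1.01 with atg2-4 alone, 0.0504, 0.255 and 0.0655 with lon2-8 alone and 0.692, 0.833 and 0.856 with both mutations, which rests on 39 fragments over the 6 libraries without atg2-4 and 243 over those with it. CRK7, the paralog of CRK6, had 38 and 199 fragments, CRK20 had 55 and 227, and CRK24 had 10 and 85. CRK23 had 9 and 56, and CRK32 had 5 and 31. In CRK23, Col-0 library 2 and atg2-4 library 3 held 3 fragments each, so they differ only through the scaling to library size. CRK20 is known to be induced by salicylic acid and during infection with Pseudomonas. CRK16 did not follow them, with 99 fragments without and 100 with atg2-4, and CRK39 had 16 and 17. In a fit without the filter, CRK7, CRK20, CRK24, CRK32, CRK37 and CRK38 rose in atg2-4 against Col-0, none of the 11 passed in lon2-8 against Col-0, and the family's counts over 39 genes were 25 higher and 4 lower in atg2-4. The shares of all genes given above belong to the fit with the filter, and the shares in this fit are not given here.

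In the authors' deposited table, which marks genes as up or down by a test that is not stated, 27 of the 39 members are marked up and 2 down in atg2-4 against Col-0, beside 18.4% of its 26093 genes up and 11.5% down. For lon2-8 against Col-0 the authors' deposited table marks 3 members up and 10 down, beside 8.42% and 6.94% of all its genes. For the double mutant against Col-0 the authors' deposited table marks 27 up and 1 down, beside 19.5% and 13.7%. Against atg2-4 the authors' deposited table marks 5 up and 2 down, CRK6 and CRK9, beside 3.10% and 2.53%.

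Other genes of pattern-triggered signalling at the plasma membrane were examined as a list of 31 receptors, co-receptors, kinases and NADPH oxidases, all tested. In atg2-4 against Col-0, 21 rose and 1 fell, with a median of 0.28, where 21.3% of all genes rose and 27.2% fell. The kinase genes WAK1 (2.46 ± 0.064) and FRK1 (1.5 ± 0.053), the receptor gene RLP23 (1.35 ± 0.097) and its co-receptor gene SOBIR1 (1.34 ± 0.039) rose by at least 2-fold on the log2(FPKM + 1) scale. The flagellin receptor gene FLS2 (0.74 ± 0.079), its co-receptor gene BAK1 (0.32 ± 0.048) and RBOHD (0.52 ± 0.049) rose by less, and GHR1 fell (−0.40 ± 0.065). RLP23 and EFR met the filter only with libraries that carry atg2-4, so they could enter the test only by being higher there. Both are counted among the rises of this list here and in the double mutant against lon2-8 and against Col-0. In lon2-8 against Col-0, 1 rose and 4 fell, 16.1% of the list where 23.1% of all genes passed. In the double mutant against lon2-8, 21 rose and 2 fell, 74.2% where 49.9% of all genes passed. The double mutant against Col-0 had 22 higher and 1 lower, 74.2% where 52.0% of all genes passed, and against atg2-4 1 higher and 3 lower, 12.9% where 8.88% passed. The interaction passed for 5 positive and 3 negative genes of this list, 25.8% where 13.2% of all genes passed, MPK3 being positive (0.59 ± 0.053) as the 8 CRK genes were and FRK1 negative (−0.51 ± 0.074). MPK3, a mitogen-activated protein kinase gene, fell in lon2-8 (−0.50 ± 0.038) and rose in atg2-4 (0.40 ± 0.038).

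Relatives with DUF26 domains but no kinase moved in both directions. Of 9 such genes 8 were tested, PDLP1 being below the filter. PDLP5, known for closing plasmodesmata in response to salicylic acid, rose in atg2-4 (1.23 ± 0.065), as did the secreted protein gene CRRSP38 (0.46 ± 0.039), while PDLP2, PDLP3 and PDLP7 fell, so that 62.5% of the 8 passed where 48.5% of all genes did. In lon2-8 against Col-0 1 rose (CRRSP38) and 1 fell (PDLP3), 25% of the 8 where 23.1% of all genes passed. In the double mutant against lon2-8 2 rose and 2 fell, as against Col-0, 50% of the 8 where 49.9% and 52.0% of all genes passed. Against atg2-4 and in the interaction 0 of 8 passed, where 8.88% and 13.2% of all genes did. Missing the threshold does not show that these genes were unchanged.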

How the data were processed

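The authors deposited FPKM values for 26093 genes in 12 libraries, and a mark of up or down per gene for 4 comparisons. Per the labels' protocols, whole-seedling RNA was poly-A selected and sequenced as paired ends. The submitters' processing notes name STAR 2.5.1a, Salmon 0.8.2, featureCounts 1.4.6-p5 of Subread, limma, edgeR and bcl2fastq, without roles, and neither a build nor strand use is given in the sources used here. FPKM values were whole multiples of 1 step, within 0.01 fragments, for 26093 of 26093 genes, which gave the fragments per library. The implied length was within 3 bases of the TAIR10.1 gene span for 26063 genes, so that annotation was used for coordinates.

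Log2(FPKM + 1) of genes that reached 1 FPKM in 3 or more libraries was fitted with limma 3.58.1 (R 4.3.3, trend, 1 mean per genotype, all 12 libraries), with Benjamini-Hochberg adjustment over 20662 genes in each of 6 comparisons. The script was tested on simulated data. The members and lists were chosen with earlier results of these data known. Values of every library are given for members past the threshold and at least 2-fold apart in any comparison, or past it in the interaction (16 genes); up to 10 others serve as examples. Coding sequences were aligned with Biopython 1.88 (match 2, mismatch −1, gap opening −5, extension −1), in place of the planned protein alignment, because no protein table was used here. Figures were made with matplotlib 3.10.9 under Python 3.11.15.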

Additional observations from a re-analysis of the deposited data

Results flagged for a closer look

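In 8 CRK genes the effect of lon2-8 differed between the atg2-4 and the Col-0 background by limma's interaction test, on the log2(FPKM + 1) scale. The difference between the effects was 0.89 for CRK21, 0.87 for CRK30, 0.61 for CRK12 and 0.60 for CRK40. It was 0.50 for CRK10, 0.47 for CRK31, 0.39 for CRK41 and 0.27 for CRK29. The calls of CRK31 and CRK41 were not kept when some single libraries were left out, while the other 6 passed under every alternative run.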

How the results depend on the processing

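The counts of CRK members past the threshold stayed within 1.5 times the reported count under every alternative, except that the double mutant against atg2-4 gave 2 in place of 6 without double mutant library 3. With 1 library left out in turn, the counts were 22 to 23 for atg2-4, 10 to 13 for lon2-8 and 22 to 23 for both mutations against Col-0. They were 2 to 7 for the double mutant against atg2-4, 22 to 24 against lon2-8 and 6 to 8 for the interaction. Of 67 calls of named genes, 26 of 804 values with 1 library left out missed the threshold, as did 2 with centred libraries, 1 without the filter, 2 with only the compared groups and 0 with a pseudocount of 0.1; 0 reversed. Cores were in 63.4% of the windows with TTGACC or TTGACT, where all genes had 32.4%, and in 73.2% of the 250 bases upstream alone, where all genes had 44.9%. The median identity was 56.8% by local alignment. Libraries with the same replicate number did not deviate together (r from −0.06 to 0.05 over 18 pairs, against −0.05 to 0.06 for other numbers), and 6 of 12 correlated best with their own number. With the replicate number as a block the counts were 23 for atg2-4, 13 for lon2-8 and 23 for both mutations against Col-0, 5 and 23 for both mutations against atg2-4 and lon2-8, and 8 for the interaction; the call of CRK21 against atg2-4 was lost (adjusted p = 0.0604). With 3 libraries per group and few fragments for the genes under the filter, small differences were not detectable at this depth.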
